A study of Homo sapiens with 16 samples.

Results

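The early growth response factors EGR1, EGR2, EGR3 and EGR4, their co-repressors NAB1 and NAB2, the nuclear receptors NR4A1, NR4A2 and NR4A3, and the transcription factor SRF were followed across 16 RNA-seq libraries of HEK293 cells. The genes were chosen by symbol, and all 10 were found among the 60671 genes of the count table. HEK293 is an established cell line derived from human embryonic kidney. Each library came from 1 of 8 groups of 2: cells given a plasmid with 1 cloned transcript of the long non-coding RNA LINC01016 (T1, T2, CU1, CU2, CU1ENC or CU1ENU), cells given the empty vector, and parental cells. Per the labels' protocols, cells in 60 mm plates received 5 µg of plasmid built on pcDNA3.0, carried by a Lipofectamine reagent, and RNA was taken after 48 h. The 14 plasmid-treated libraries therefore share plasmid backbone, lipid reagent and timing, while the labels describe no reagent-only group. Nothing in the labels says whether the 2 replicates of a group were separate cultures. The p-values here reflect the spread between the 2 libraries within groups, estimated over all 16 libraries together. The labels do not say how much of that spread is technical.

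EGR factors are zinc-finger proteins and NR4A proteins are orphan nuclear receptors. Both families belong to the immediate-early genes, whose transcription starts within minutes of a growth, calcium or stress signal without new protein synthesis. SRF, bound to CArG boxes together with ternary complex factors or myocardin-related cofactors, drives EGR1 and EGR2, and CREB family proteins drive the NR4A genes through cAMP response elements (CRE). NAB1 and NAB2 bind EGR1, EGR2 and EGR3 and repress their activity, and NAB2 is itself an EGR target, which closes a feedback loop.

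Totals ran from 15040770 to 17255935 counts a library, with TMM factors from 0.974 to 1.03. LINC01016 had 40405 to 192244 counts in the 12 isoform libraries, against 0 and 1 in empty vector and 0 in both parental libraries. Of 9 HEK293 and renal epithelial markers, 8 reached 1 CPM (a gene's share of its library's counts after TMM scaling) in at least 1 library. VIM was at 1213 to 1501 CPM and KRT18 at 152 to 299 CPM, while PAX8 stayed at or below 0.245 CPM. In empty vector over parental cells KRT8 (log2 fold change 0.56, adjusted p = 0.0429, edgeR) and KRT18 (0.60, adjusted p = 0.00924) were higher. NEFL was lower (-0.42, adjusted p = 0.0290, edgeR). Of 7 fibroblast markers 4 reached 1 CPM in a library, led by COL1A1 (35.8 to 51.5 CPM), while COL1A2, DCN and THY1 did not. LUM was lower in empty vector than in parental cells (log2 fold change -1.10, adjusted p = 0.0298, edgeR). The sum of the 7 was 44.9 to 58.0 CPM in plasmid-treated libraries and 59.6 and 61.1 CPM in parental ones. Of 5 leukocyte markers only CD14 reached 1 CPM (1.07 to 4.55 CPM). It was higher in empty vector than in parental cells (log2 fold change 1.19, adjusted p = 0.0289, edgeR). The summed level of the leukocyte list was 1.97 to 4.68 CPM in plasmid-treated and 1.24 and 1.52 CPM in parental libraries. All 5 neuron markers reached 1 CPM in a library. Their sum was 25.6 to 33.4 CPM in plasmid-treated and 19.0 and 21.5 CPM in parental libraries. In empty vector over parental cells GAD1 (log2 fold change 0.67, adjusted p = 0.00415, edgeR) and SYN1 (2.10, adjusted p = 0.00609) were higher. The other neuron markers had adjusted p of 0.426 or more. Of 4 endothelial markers 2 reached 1 CPM, with sums of 1.14 to 2.62 CPM in plasmid-treated and 2.86 and 3.43 CPM in parental libraries. The part of such markers in the values below was not tested. Bulk RNA cannot tell fewer expressing cells from less RNA per cell.

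RefSeq promoter windows (GRCh38.p14, 250 bases before to 50 after a start) matched 8 of the 10 genes, in 14 windows. EGR3 and NR4A2 had no window, so they were not searched for motifs. The stretches below are shown because they hold letter matches to the CArG box of SRF or the CRE half-site of CREB proteins. Whether these matches are the sites in use was not tested. Capitals mark CArG boxes in EGR1, EGR2 and SRF, and CRE half-sites (TGACG, either strand) in NR4A3. They lie at chr5:138465344-138465435 (plus strand), chr10:62816398-62816467 (minus), chr6:43171209-43171268 (plus) and chr9:99821764-99821818 (plus), each upstream of the start and outside the exons counted for its gene.
EGR1: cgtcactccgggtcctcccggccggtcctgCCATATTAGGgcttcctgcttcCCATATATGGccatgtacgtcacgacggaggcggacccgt
EGR2: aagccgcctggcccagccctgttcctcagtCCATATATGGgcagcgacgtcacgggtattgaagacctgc
SRF: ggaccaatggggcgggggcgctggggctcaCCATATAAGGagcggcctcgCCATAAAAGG
NR4A3: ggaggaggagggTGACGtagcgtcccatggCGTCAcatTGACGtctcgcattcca

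The CArG box occurred in windows of 3 of these 8 genes (EGR1, EGR2 and SRF) and in 1.29% of all 35116 windows. Here and below a gene was counted if any of its windows matched, and some genes had several windows. The percentages count single windows, so the figures are not like for like. The CRE half-site occurred in 6 of 8 (EGR1, EGR2, EGR4, NAB1, NR4A3 and SRF) and in 24.6% of all windows. The EGR motif GCGNGGGCG, searched on both strands, occurred in 5 of 8 (EGR1, EGR2, NAB1, NAB2 and SRF) and in 9.43% of all windows. None of the 14 windows held the full CRE TGACGTCA, which contains the half-site on each strand, or the NR4A motif AAAGGTCA. Those stood in 1.85% and 1.22% of all windows. A match of letters is a description of the window and no measure of binding.

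EGR1 (ENSG00000120738, chr5:138465479-138469303, plus strand; GRCh38 here and below, from the count table), the best known family member, was low in parental cells and high in every plasmid-treated library. Counts ran from 1391 to 2300 in the 12 isoform libraries, with a median of 102 CPM (range 88.0 to 145). The empty vector libraries had 1626 and 1652 counts, or 99.7 and 106 CPM. The parental libraries had 572 and 404 counts, or 33.9 and 24.6 CPM. No plasmid-treated library overlapped a parental one, and the highest parental value lay far below the lowest of the others. Of all 19316 tested genes, 16.8% were higher and 14.9% lower in plasmid-treated than in parental libraries without overlap. These shares belong beside each such statement below. Empty vector cells held 3.51-fold more EGR1 RNA than parental cells (95% interval 2.51 to 4.91, log2 fold change 1.81 ± 0.22 (SE), adjusted p = 0.000405, edgeR quasi-likelihood test).

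EGR2 (ENSG00000122877, chr10:62811996-62919900, minus strand), which controls myelination in Schwann cells, was scarce and had the largest estimated rise of the 9 genes tested. It had 34 to 71 counts in isoform libraries (median 3.51 CPM, range 2.23 to 4.60), 38 and 70 counts in empty vector and 19 and 8 in parental cells. The empty vector libraries, at 2.33 and 4.48 CPM, spanned most of the isoform range, and the parental libraries at 1.12 and 0.487 CPM lay below all others. The fold was 4.17 (2.24 to 7.77) in empty vector over parental cells, with log2 fold change 2.06 ± 0.42 and adjusted p = 0.00461. Within replicate 2 the log2 ratio was 3.20 and within replicate 1 it was 1.05. The call was lost without empty vector replicate 2 (adjusted p = 0.0645) and without parental replicate 2 (0.0569).

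EGR3 (ENSG00000179388, chr8:22687659-22693480, minus strand), an EGR1-related factor of nerve and lymphocyte development, was about as strongly raised and more even between replicates. The isoform libraries had 92 to 165 counts (median 7.77 CPM, range 6.04 to 9.51), empty vector had 145 and 121 counts (8.89 and 7.75 CPM), and parental cells had 33 and 50 counts (1.95 and 3.05 CPM). All plasmid-treated libraries lay above both parental ones. Empty vector over parental gave a fold of 3.33 (2.41 to 4.59), log2 fold change 1.73 ± 0.22 and adjusted p = 0.000231.

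EGR4 (ENSG00000135625, chr2:73290929-73293701, minus strand), the fourth family member, had 0 counts in both parental libraries and 2 to 9 counts in each plasmid-treated library. The empty vector libraries had 7 and 4 counts. Summed, plasmid-treated cells had 71 counts in 14 libraries, or 0.318 CPM, and empty vector 11 counts, or 0.348 CPM. A floor of 3 counts over both parental libraries equals 0.0909 CPM. The summed EGR4 level was 3.50 times this floor in plasmid-treated cells and 3.83 times in empty vector. The floor allows for counting error in the parental libraries only. It leaves out the counting error of the 71 and 11 counts and the spread between libraries, so these are no lower limits of the fold. EGR4 fell below the low-count filter. An exact two-sided permutation test of the 14 against 2 libraries gave p = 0.00833, the smallest it can give. The test was chosen after the values were seen, when the lack of overlap had already fixed this p. It therefore adds nothing to the counts. It also treats libraries of different plasmid groups as interchangeable and leaves out the replicate number, so no conclusion is drawn from it. Without the filter, edgeR's adjusted p was 0.0232 for empty vector against parental, over 38201 genes.

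**Figure D1:**
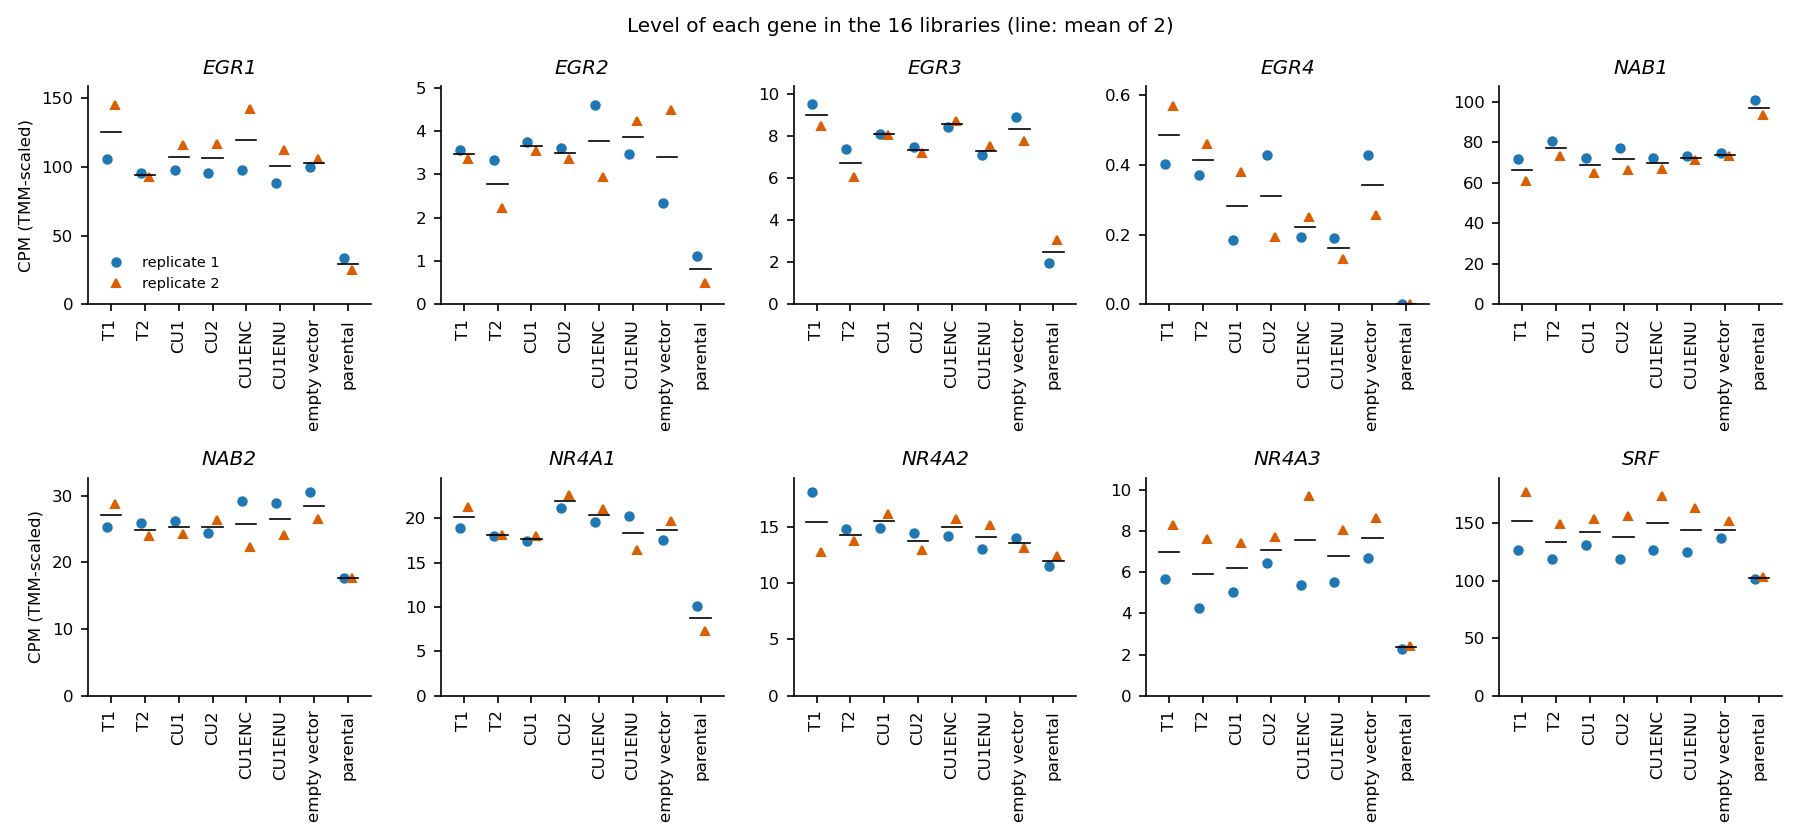
Level of each gene in CPM (TMM-scaled, linear axes from 0) in the 16 libraries by group; circles are replicate 1, triangles replicate 2 and lines the mean of 2. For EGR1 the 14 plasmid-treated libraries sit between 88.0 and 145 CPM and the parental libraries at 33.9 and 24.6 CPM, NAB1 runs the other way, and NR4A2 shows the smallest step.

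The NAB co-repressors moved in opposite directions. NAB2 (ENSG00000166886, chr12:57089043-57095476, plus strand) was at 22.3 to 29.2 CPM in isoform libraries (median 25.6), 30.5 and 26.5 CPM in empty vector, and 17.7 CPM in each parental library. NAB1 (ENSG00000138386, chr2:190646746-190692766, plus strand) was at 60.7 to 80.8 CPM in isoform libraries (median 72.0), 74.9 and 73.1 CPM in empty vector, and 100.8 and 93.4 CPM in parental cells. Neither gene's plasmid-treated libraries overlapped the parental ones. NAB2 rose 1.61-fold in empty vector over parental cells (1.31 to 1.98, log2 0.69 ± 0.14, adjusted p = 0.00468), a call lost without empty vector replicate 1 (adjusted p = 0.0595). NAB1 fell by 0.39 ± 0.10 on the log2 scale, a fold of 0.762 (0.654 to 0.888, adjusted p = 0.0191). That call was lost without parental replicate 1 (adjusted p = 0.130), empty vector replicate 1 (0.0664) or empty vector replicate 2 (0.103).

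Per kilobase of exon, the level of NAB2 was 0.697 and 0.618 times that of NAB1 in empty vector, against 0.300 and 0.323 in parental cells. Over all plasmid-treated libraries this ratio of levels ran from 0.538 to 0.811. EGR1 stood at 2.98 and 3.65 times the NAB2 level per kilobase in empty vector, against 1.74 and 1.27 times in parental cells, and at 2.78 to 5.80 times over all 14 plasmid-treated libraries. The groups did not overlap in either ratio.

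Of the NR4A receptors, which bind DNA as monomers or dimers, NR4A1 and NR4A3 rose and NR4A2 did not pass the test. NR4A1 (ENSG00000123358, chr12:52022832-52059507, plus strand) had 251 to 350 counts in isoform libraries (median 19.3 CPM, range 16.4 to 22.7), 286 and 308 counts in empty vector (17.5 and 19.7 CPM), and 171 and 120 counts in parental cells (10.1 and 7.31 CPM). Every plasmid-treated library lay above both parental ones. The fold in empty vector over parental cells was 2.13 (1.69 to 2.69), with log2 fold change 1.09 ± 0.16 and adjusted p = 0.000576.

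NR4A3 (ENSG00000119508, chr9:99821855-99866891, plus strand) had 69 to 155 counts in isoform libraries (median 6.92 CPM, range 4.26 to 9.73), 109 and 135 counts in empty vector (6.68 and 8.65 CPM), and 38 and 40 counts in parental cells (2.25 and 2.44 CPM). The groups did not overlap, and the isoform libraries spread widely among themselves. Empty vector over parental gave a fold of 3.26 (1.89 to 5.63), log2 fold change 1.71 ± 0.37 and adjusted p = 0.00663. The call was lost without parental replicate 1 (adjusted p = 0.0606) or empty vector replicate 2 (0.0566).

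NR4A2 (ENSG00000153234, chr2:156324437-156342348, minus strand), known for its part in dopaminergic neurons, had 200 to 314 counts in isoform libraries (median 14.6 CPM, range 12.7 to 18.1), 228 and 204 counts in empty vector (13.98 and 13.07 CPM), and 194 and 203 counts in parental cells (11.5 and 12.4 CPM). The lowest plasmid-treated value was only just above the highest parental one. The fold in empty vector over parental was 1.13 (0.888 to 1.45, adjusted p = 0.503). With NR4A1 changing and NR4A2 not passing, the level of NR4A1 per kilobase was 0.681 and 0.820 times that of NR4A2 in empty vector, against 0.479 and 0.321 times in parental cells, and 0.569 to 0.951 times over all plasmid-treated libraries.

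SRF (ENSG00000112658, chr6:43171269-43181506, plus strand) was abundant and showed a small difference. Isoform libraries had 1924 to 2798 counts (median 140 CPM, range 119 to 177), empty vector 2233 and 2373 (137 and 152 CPM), and parental cells 1710 and 1697 (101.2 and 103.4 CPM). All plasmid-treated libraries lay above both parental ones. The fold in empty vector over parental was 1.41 (1.04 to 1.92, log2 fold change 0.50 ± 0.21), which missed the threshold with adjusted p = 0.123. With the replicate number as a block, the log2 fold change was 0.49 and passed (adjusted p = 9.03e-05).

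In all, 7 of the 9 tested genes were called in empty vector over parental cells, 6 higher and 1 lower, where 16% of all 19316 tested genes were called (9.41% higher, 6.6% lower). Their median log2 fold change was 1.09, and that of all tested genes was 0.01. The CPM of the libraries did not overlap for 8 genes that were higher and 1 that was lower, where 30.1% of all tested genes were higher and 27.8% lower without overlap. Leaving out empty vector replicate 2 left 4 of the 7 calls, and leaving out any 1 of the 4 libraries of this comparison cut the calls over all genes to between 1386 and 1562. EGR1, EGR3 and NR4A1 kept their calls whichever single library was left out. Adding the replicate number as a block kept all 7 calls. By edgeR with this block, adjusted p was 6.80e-05 for EGR2, 2.05e-05 for NAB1, 1.80e-05 for NAB2 and 3.24e-07 for NR4A3. With 2 libraries a group, an exact permutation test of a single gene could not go below p = 0.33.

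**Figure D2:**
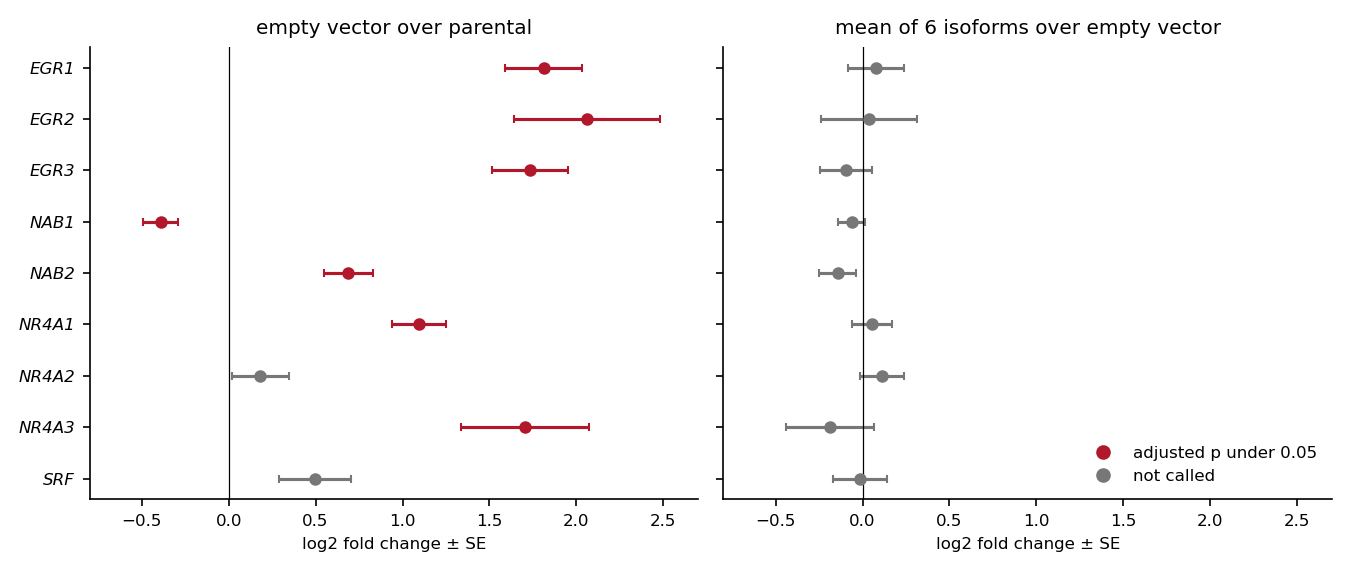
Log2 fold change of the 9 tested genes with its SE (bars), for empty vector over parental cells (left) and the mean of the 6 isoforms over empty vector (right); red marks adjusted p under 0.05. On the left EGR2 reaches 2.06 and NAB1 is at -0.39, and on the right no gene is called and each estimate lies between -0.19 and 0.11.

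All 7 plasmid-treated groups together, set against the same parental libraries, gave 8 of 9 calls, 7 higher and 1 lower, where 29.7% of all tested genes were called (15.4% higher, 14.3% lower). Their libraries did not overlap the parental ones for 8 genes that were higher and 1 that was lower, beside 16.8% and 14.9% of all tested genes. EGR1 was 3.68-fold higher (2.76 to 4.89, adjusted p = 4.07e-05), EGR2 4.26-fold (2.52 to 7.20, adjusted p = 0.000631) and EGR3 3.14-fold (2.40 to 4.12, adjusted p = 3.03e-05). NR4A1 was 2.21-fold higher (1.83 to 2.66), NR4A3 2.92-fold (1.85 to 4.60), NAB2 1.48-fold (1.26 to 1.74) and SRF 1.40-fold (1.10 to 1.79, adjusted p = 0.0389), and NAB1 had a fold of 0.734 (0.657 to 0.821). The empty vector libraries take part in both comparisons, so this is no separate evidence. The SRF call was lost without either parental library (adjusted p = 0.219 without replicate 1, 0.164 without replicate 2), either empty vector library (0.0511 and 0.0583), T2 replicate 2 (0.0517) or CU1 replicate 2 (0.0545). NR4A2 had a fold of 1.21 (1.01 to 1.46, adjusted p = 0.114), and passed with the replicate block (adjusted p = 0.0437) or without T1 replicate 2 (0.0442). Calls over all genes fell to 2488 without parental replicate 1 and 3193 without parental replicate 2, against 5744 with all libraries.

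The LINC01016 transcripts were compared with empty vector to ask whether any isoform differed from the same plasmid without an insert. No gene of the 9 was called for the mean of the 6 isoforms (0.0104% of all tested genes called), and none had an unadjusted p under 0.05 by edgeR. DESeq2 called none either. Relative to empty vector, the isoform mean had a fold of 1.05 for EGR1 (0.826 to 1.35), 1.02 for EGR2 (0.680 to 1.54) and 0.937 for EGR3 (0.749 to 1.17). It was 0.958 for NAB1 (0.852 to 1.08), 0.905 for NAB2 (0.775 to 1.06), 1.04 for NR4A1 (0.877 to 1.23), 1.08 for NR4A2 (0.897 to 1.30), 0.878 for NR4A3 (0.602 to 1.28) and 0.991 for SRF (0.783 to 1.25). These 95% intervals come from the fit without the replicate block and are widest for EGR2 and NR4A3. They are no limit of the design. With the block, the SE of the log2 fold change was 0.063 for SRF, against 0.156 without it. For NR4A3 it was 0.149, against 0.254. None of the 9 genes separated the 12 isoform libraries from the 2 empty vector libraries, where 0.559% of all tested genes were higher and 0.689% lower without overlap.

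Each single isoform against empty vector likewise gave no call and, without the replicate block, no unadjusted p under 0.05 among the 9 genes; over all tested genes 0.0104% were called in each isoform other than CU2, where 0.00518% were. These 6 comparisons share the empty vector libraries. EGR1 averaged 125.5 ± 28.1 CPM for T1 and 94.1 ± 1.70 CPM for T2 (SD, n = 2 in each group). CU1 cells averaged 107 ± 13.2, CU2 cells 106.3 ± 15.03, CU1ENC cells 119.9 ± 31.3 and CU1ENU cells 100.4 ± 17.4 CPM, against 103 ± 4.31 CPM with empty vector. T1 had the highest EGR1 level of the 6 isoforms in each replicate, at 145 CPM in replicate 2 and 106 CPM in replicate 1. T2 had the lowest mean of the 7 plasmid-treated groups for EGR1, EGR2 (2.78 ± 0.778 CPM), EGR3 (6.72 ± 0.967), NAB2 (24.9 ± 1.39), NR4A3 (5.93 ± 2.37) and SRF (134 ± 21.3), and the highest for NAB1 (77.1 ± 5.23). The lowest mean lay elsewhere for NR4A1 (CU1, 17.7 CPM), NR4A2 (empty vector, 13.5) and EGR4 (CU1ENU, 0.160). Single replicates did not all follow the means. In replicate 1 EGR1 was at 88.0 CPM in CU1ENU and 95.3 in T2. There EGR2 was lower in empty vector (2.33) than in T2 (3.33), and EGR3 lower in CU1ENU (7.09) than in T2 (7.40). SRF was at 118.64 CPM in CU2 and 118.71 in T2 in replicate 1. NR4A3 was lower in CU1 (7.40) than in T2 (7.61) in replicate 2. NAB2 was lower in CU2 (24.4) than in T2 (25.9) in replicate 1, and lower in CU1ENC (22.3) than in T2 (24.0) in replicate 2. T2 was thus lowest in both replicates for none of the genes with their lowest mean there. Against the mean of the other 5 isoforms, the T2 fold was 0.845 for EGR1 (0.657 to 1.09), 0.765 for EGR2 (0.498 to 1.18) and 0.838 for EGR3 (0.662 to 1.06), none of them called, with 0% of all tested genes called by edgeR or DESeq2 and 450 at an unadjusted p under 0.05. T1 gave 1.19 for EGR1 (0.937 to 1.52) and 1.19 for EGR3 (0.950 to 1.49), also not called. A joint edgeR test of any difference among the 6 isoforms called no gene (0%), and DESeq2 called 2, none of the 9. The lowest unadjusted p among the 9 was 0.307, for NR4A1, and 98 of all tested genes had an unadjusted p under 0.05. With the replicate block the lowest was 0.0517, for NAB1. That block also gave NAB1 an unadjusted p of 0.0226 for T1 against empty vector, 0.0327 for T1 against the other 5 isoforms and 0.00832 for T2 against the other 5, and NR4A1 0.0369 for CU2 against the other 5; no adjusted p among these was below 0.524 (edgeR).

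The replicate number carried a difference of its own in SRF, NR4A3 and NAB1. A term for replicate 2 over replicate 1, fitted over all 8 groups, called 3 of 9 genes, 2 higher and 1 lower, where 35.9% of all tested genes were called (18% higher, 17.9% lower). SRF was at 149 to 177 CPM in the 7 plasmid-treated libraries of replicate 2 (median 156) and at 119 to 137 CPM in the 7 of replicate 1 (median 127). NR4A3 was at 7.40 to 9.73 CPM in replicate 2 (median 8.04) and at 4.26 to 6.68 CPM in replicate 1 (median 5.51). For both genes the replicates of plasmid-treated cells did not overlap, as for 7.64% of all tested genes that were higher in replicate 2. The log2 term was 0.31 ± 0.04 for SRF (adjusted p = 5.29e-06), 0.53 ± 0.10 for NR4A3 (adjusted p = 0.000107) and -0.13 ± 0.03 for NAB1 (adjusted p = 0.00257).

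In parental cells the same log2 ratio was only 0.03 for SRF and 0.12 for NR4A3, from 1 library of each replicate. NAB1 was lower in replicate 2 in 8 of 8 groups, by 0.03 to 0.24 on the log2 scale. EGR1 was higher in replicate 2 in 6 of the 7 plasmid-treated groups, T2 being the exception, and lower in parental cells. Its term was 0.21 ± 0.10 over all libraries (adjusted p = 0.164) and 0.28 in the 14 plasmid-treated libraries alone (adjusted p = 0.0108). Without parental replicate 1 or without parental replicate 2, which leaves the other parental library uninformative about replicates, it also passed (adjusted p = 0.00867 and 0.00875). For EGR2, EGR3, NAB2, NR4A1 and NR4A2 the term lay between -0.10 and 0.00 and was not called. What distinguishes the replicate numbers is not given in the labels.

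**Figure D3:**
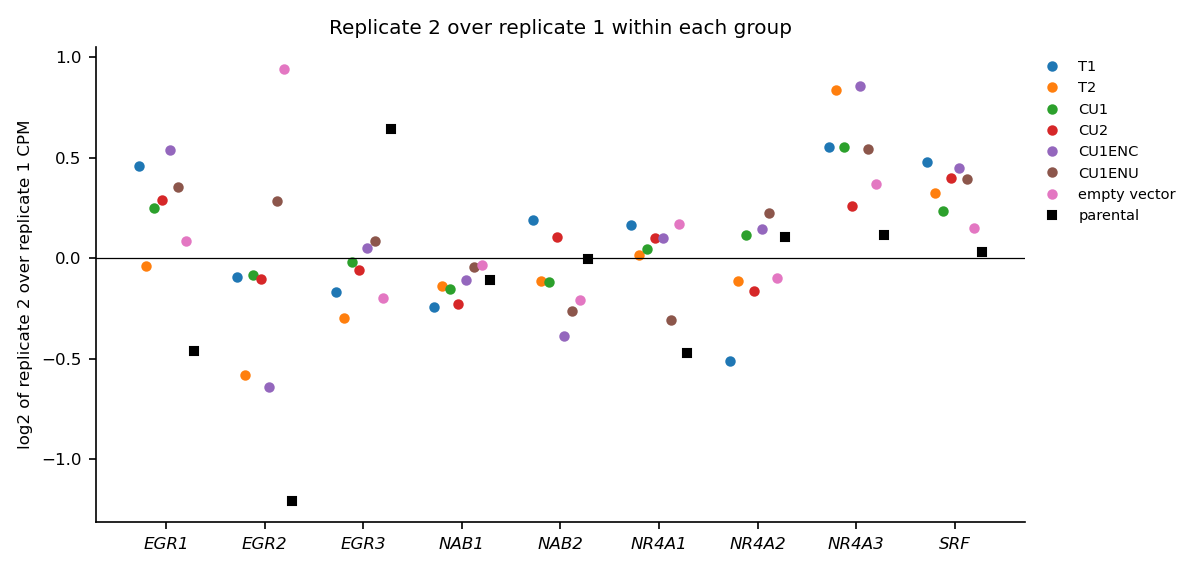
Log2 of the CPM of replicate 2 over replicate 1 within each group for the 9 tested genes; each point is 1 group (black squares, parental cells). The SRF and NR4A3 points of all 7 plasmid-treated groups lie above 0, from 0.15 to 0.48 and from 0.26 to 0.86, and the NAB1 points of all 8 groups lie below 0.

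Interferon and interferon-stimulated genes moved with the replicate number as well. The list of 14 such genes included IFNB1 and IFNL1, which encode interferons. The summed level of the 14 was 236 to 1520 CPM in plasmid-treated replicate 2 (median 387). It was 1500 to 3600 CPM in plasmid-treated replicate 1 (median 2510) and 104 and 129 CPM in parental cells. All 14 were called lower in replicate 2, while SRF and NR4A3 were higher there. Of all tested genes, 17.9% were called lower and 18% higher by this term. In empty vector over parental cells the 14 genes had a median log2 fold change of 3.65, with adjusted p from 0.119 to 0.343. Their part in the values of the EGR, NR4A and SRF genes was not tested.

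Levels between genes were compared per kilobase of exon (CPM per kb). In the plasmid-treated libraries the medians ran from SRF (33.8) through EGR1 (32.7), NAB1 (14.8), NAB2 (9.12), NR4A2 (3.62), NR4A1 (2.65), EGR3 (1.57), NR4A3 (1.12) and EGR2 (0.952) to EGR4 (0.132). Ranges of neighbours overlapped for SRF and EGR1, for EGR3 and NR4A3, and for NR4A3 and EGR2, and not for the other neighbours. In parental cells the order of mean levels was SRF (24.2), NAB1 (19.9), EGR1 (9.32), NAB2 (6.18), NR4A2 (3.01), NR4A1 (1.19), EGR3 (0.497), NR4A3 (0.371), EGR2 (0.219) and EGR4 (0), with no overlap between neighbours in 2 libraries each. EGR1 and NAB1 thus changed places in the order, with EGR1 at 28.1 to 46.4 and NAB1 at 12.4 to 16.5 CPM per kb in plasmid-treated libraries, against 7.85 and 10.8 for EGR1 and 19.1 and 20.6 for NAB1 in parental cells.

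Most other immediate-early genes on a fixed list also differed between empty vector and parental cells. Of 28 tested, 19 rose and 1 fell, where 9.41% of all tested genes were called higher and 6.6% lower, with a median log2 fold change of 1.16. ATF3, a stress-induced bZIP factor, rose by 2.36 ± 0.15 on the log2 scale (459 ± 6.55 CPM in empty vector, 89.2 ± 15.5 in parental cells, SD, n = 2 each). MAFF, a small MAF protein, rose by 3.35 ± 0.28, CSRNP1 by 1.44 ± 0.12 and KLF10 by 1.17 ± 0.11. IER5 fell by 0.67 ± 0.16 on the log2 scale, to 91.1 ± 5.84 CPM in empty vector, against 145 ± 15.6 CPM in parental cells.

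Of 18 genes for SRF and CREB partners and the kinases upstream of them, 3 were called higher and 0 lower, with a median of -0.03; this share is near the 16% of all tested genes called. The 3 genes were CRTC2, a CREB coactivator (log2 0.81 ± 0.11), ATF1, a CREB family factor (0.46 ± 0.11), and MRTFA, an SRF coactivator released when actin polymerises (0.52 ± 0.15). The ternary complex factor genes ELK1 (-0.07), ELK3 (-0.18) and ELK4 (-0.13) did not pass. Among 18 cytoskeletal targets of SRF, 2 were called higher, FHL2 (1.08 ± 0.19) and the smooth muscle calponin CNN1 (1.04 ± 0.28), again near the background of 9.41%. With all 7 plasmid-treated groups set against parental cells, 10 were called higher and 0 lower, where 15.4% of all tested genes were called higher. All 18 estimates were positive, with a median of 0.48, and the replicate term called 14 of them higher and 1 lower in replicate 2, against 18% and 17.9% of all tested genes.

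Of 12 genes described as EGR1 targets in other cells, 4 rose and 1 fell, beside 9.41% and 6.6% of all tested genes, with a median of 0.19. The angiogenic factor VEGFA rose by 0.94 ± 0.12, tissue factor F3 by 0.95 ± 0.18 and the adhesion molecule ICAM1 by 1.48 ± 0.47 on the log2 scale. Of the NR4A partners, RXRA fell by 0.29 ± 0.08 on the log2 scale, while RXRB (-0.17) and the NAB2-binding remodeller CHD4 (0.33) did not pass and RXRG was below the filter.

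**Figure D4:**
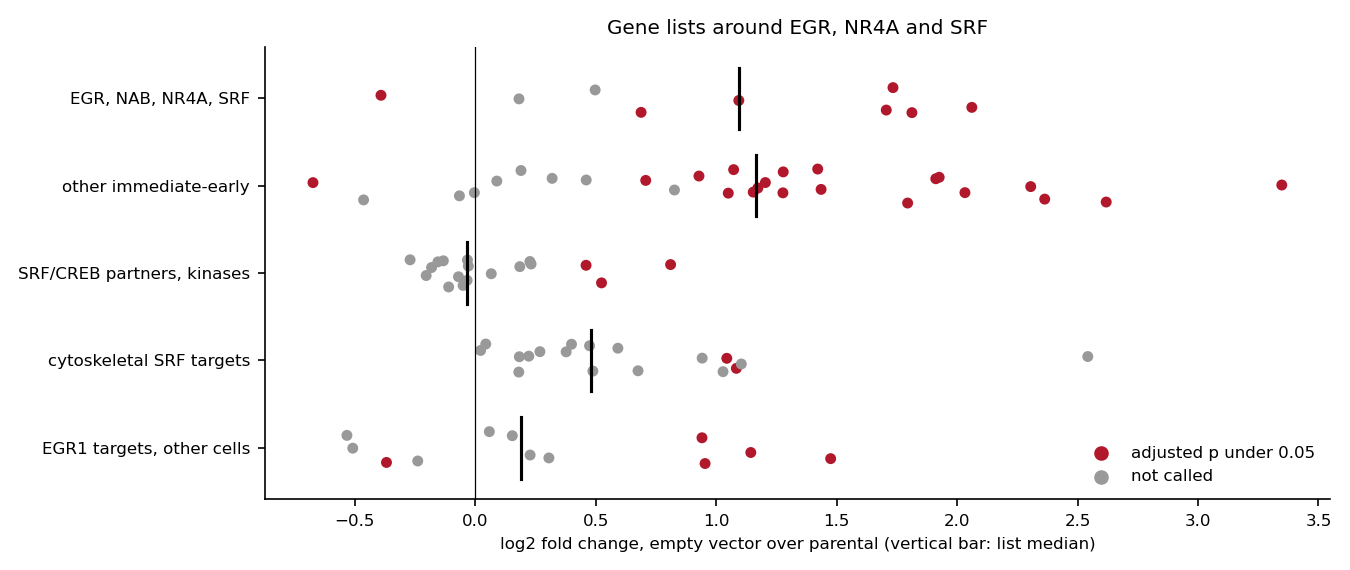
Log2 fold change of empty vector over parental cells for each tested gene of 5 lists (1 point a gene, vertical jitter only); red marks adjusted p under 0.05 and the bar the list's median. The medians are 1.09 for the EGR, NAB, NR4A and SRF genes and 1.16 for the other immediate-early genes, and those of the 3 remaining lists lie from -0.03 to 0.48.

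Genes whose log2 CPM followed these genes most closely were ranked by Pearson r among 13793 well-expressed genes, as a description; the points share the step between parental and plasmid-treated cells and the replicate number. Over 16 libraries EGR1 ran closest with GADD45A (r = 0.990), FAM53C (0.989) and JUN (0.988), and over the 14 plasmid-treated libraries with IER2 (0.945), NEU1 (0.944) and ZBTB2 (0.932). NAB2 ran closest with TMEM198 (0.942), DNAH10 (0.941) and HSD17B7P2 (0.932) over 16, and with TNKS (0.917), CROCC (0.899) and EME2 (0.896) over 14. NR4A1 ran closest with SNHG12 (0.972), VEGFA (0.968) and TNFAIP1 (0.967) over 16, and with RELT (0.802), EPHA1 (0.794) and UBXN11 (0.794) over 14. For SRF these were ANKRD11 (0.976), MTA2 (0.974) and SUPT5H (0.971) over 16, and BMS1 (0.976), DLC1 (0.971) and NUP153 (0.970) over 14. No gene named for EGR1, NAB2, NR4A1 or SRF over 16 libraries was named for the same gene over 14.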

How the data were processed

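Deposited values were raw read counts for each gene, not normalized; per the file headers they were made with featureCounts 2.0.1 (paired reads, strand option 2, exons grouped by gene, Ensembl release 101). HISAT2, DESeq2 and GRCh38.p13 are named in the submitters' processing notes; how reads were aligned is not given in the sources used here. Symbols came from the supplied gene names, and 60401 of 60671 identifiers had one. No column was left without a sample.

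Genes passing filterByExpr by group (minimum count 10, minimum total 15) were kept, 19316 in all. Group means of the 8 groups were fitted over 16 libraries with edgeR 4.0.16 (TMM, robust quasi-likelihood test, two-sided), with Benjamini-Hochberg adjustment over all tested genes and a threshold of 0.05. DESeq2 1.42.0, other scaling factors, no filter, a replicate block and leaving out each library were alternatives. The code was tested on simulated counts. CPM per kb used the deposited exon lengths. Replicates of a group differed by more than sampling noise (chi-square per degree of freedom 6.21 to 17.0).

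Deviations from the group means correlated between libraries of the same number (r from 0.216 to 0.536 over 28 pairs of groups), so the replicate number pairs them; this comes from the data, not the labels. The genes and gene lists were chosen with earlier results of these data known. Each comparison covered the 9 tested genes. EGR4, below the filter, was described mainly by its counts and levels. Other lists named up to 4 genes of lowest p in each direction, and the 3 closest genes were named for EGR1, NAB2, NR4A1 and SRF. Some genes that this rule would name are not reported here.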

Additional observations from a re-analysis of the deposited data

How the results depend on the processing

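Depth of 15040770 to 17255935 counts a library and 2 libraries a group limit what could be called: EGR2, EGR3 and NR4A3 rest on under 200 counts a library, EGR4 on under 10. None of the genes changed direction in either comparison with parental cells under DESeq2, RLE factors, upper-quartile factors, no filter, the replicate block or leaving out 1 library, where the lone library left in a group is assumed to vary like the other groups. The cause of the changes below was not tested.

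With the replicate block the calls rose to 6626 genes for empty vector against parental and 8826 for all 7 groups against parental, and became 1 for T2 and 1 for CU1 against empty vector; SRF and NR4A2 are given above. Without the low-count filter the calls were 34 for the isoform mean over empty vector, 32 for T1, 35 for T2, 17 for CU1, 73 for CU2 and 7 for CU1ENC. Against the other 5 isoforms they were then 3 for T1, 2 for T2, 2 for CU1, 61 for CU2, 8 for CU1ENC and 27 for CU1ENU, and 63 in the joint test. SRF passed without the filter in empty vector against parental (adjusted p = 0.00154). DESeq2 called 2 for CU2 against empty vector, 2 for CU2 and 1 for CU1ENC against the other 5, and 2 in the joint test; upper-quartile factors gave 1 for CU1.

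Over 21 alternatives the adjusted p in empty vector over parental cells ran up to 0.00621 for EGR1, 0.00469 for EGR3 and 0.00973 for NR4A1, and from 9.03e-05 to 0.391 for SRF and 0.379 to 0.846 for NR4A2.

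Leaving out 1 library at a time, calls ranged from 1386 to 3222 genes and 4 to 7 of these genes for empty vector against parental, and from 2488 to 6023 genes for all 7 groups. They ranged from 1 to 2 for the mean of the isoforms and for T1, T2, CU1, CU2 and CU1ENC against empty vector, 1 to 3 for CU1ENU, and 0 to 1 for CU2, CU1ENC and CU1ENU against the other 5 and for the joint test. For the mean of the isoforms, where no gene was called, log2 fold changes crossed 0 for EGR2 (-0.357 to 0.584), EGR3 (-0.185 to 0.0137), NR4A1 (-0.0220 to 0.147), NR4A3 (-0.357 to 0.0143) and SRF (-0.0809 to 0.0693). The uncalled replicate term crossed 0 for EGR3 (-0.0847 to 0.00699), NR4A1 (-0.0281 to 0.0453) and NR4A2 (-0.0747 to 0.0326), and for NR4A1 was 0.00269 with RLE factors and 0.0479 in the 14 plasmid-treated libraries. The replicate term's leave-one-out fits were chosen after seeing the data.

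With CPM by deposited totals NAB2 averaged 17.8 CPM in parental cells, outside its narrow replicate spread. Spearman's rho named 0 of the same 3 closest genes for EGR1 and NR4A1 over either set and for SRF over 16 libraries, and 1 for SRF over 14.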
